A study of Mus musculus with 6 samples.

Results

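The genes described here encode the inhibitors of cyclin-dependent kinases (CDKs): Cdkn1a, Cdkn1b and Cdkn1c of the Cip/Kip family and Cdkn2a, Cdkn2b, Cdkn2c and Cdkn2d of the INK4 family. They were chosen by symbol through the Entrez Gene number of each probe set, and all 7 were found among 23185 named genes. RNA came from hematopoietic stem cells (HSCs) of young mice, taken fresh from bone marrow and passed through a double sort for the CD150+CD48- fraction of LSK cells (lineage-negative, Sca-1+, c-Kit+). The 3 Merit40-/- arrays carry the loss of Merit40, the product of Babam1 and a component of both the BRCA1-A and the BRISC deubiquitinase, and the 3 WT arrays are the controls. No treatment was given to either genotype. The labels name the arrays biological replicates but do not give the number of mice behind each, the sex, the strain background or the design of the Merit40 allele, so p-values measure the spread between these arrays.

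CDK inhibitors set the brake on entry into the cell cycle. The INK4 proteins bind CDK4 and CDK6 and keep them from pairing with D cyclins, whereas the Cip/Kip proteins bind assembled cyclin-CDK complexes, above all those of CDK2. With these kinases held back, the retinoblastoma protein and its relatives stay bound to E2F factors and the genes of DNA replication stay silent. HSCs rest in a non-dividing state for most of their life, and mouse studies of single and combined deletions have linked p21 (Cdkn1a), p57 (Cdkn1c), p18 (Cdkn2c) and the products of Cdkn2a to the maintenance or loss of that state.

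Each value is an RMA log2 level, so that 1 unit is a 2-fold change as read on the array, and differences are Merit40-/- minus WT. The deleted gene was low in all Merit40-/- arrays: Babam1 read 4.29, 3.87 and 4.01 in Merit40-/- HSCs, against 7.91, 8.04 and 8.05 in WT HSCs, a difference of -3.94 (adjusted p = 5.04e-05 in limma). It was the only gene past an adjusted p of 0.05, or 0.00431% of the genes tested. Of the long-term HSC markers, 17 of 17 measured lay at or above the median level of all genes (4.93), as did 11 of 12 granulocyte and monocyte, 10 of 11 erythroid, 9 of 12 macrophage and dendritic cell, 8 of 11 megakaryocyte, 5 of 12 stromal and endothelial and 4 of 11 lymphoid markers. That median is only a mark of low signal on the array, so these counts place the HSC markers at or above that mark and say nothing of purity. The arrays of 2 Merit40-/- replicates stood apart by markers of other cells. The mean of 14 skeletal muscle markers was 8.31 on the array of Merit40-/- replicate 1, against 4.97 to 5.11 on the other Merit40-/- arrays and 4.89 to 5.06 on the WT arrays. The mean of 10 osteoclast markers, of which Itgb3 is also in the megakaryocyte list, was 5.78 on the array of Merit40-/- replicate 3, against 4.78 to 4.82 on the other Merit40-/- arrays and 4.67 to 4.82 on the WT arrays. These are bulk samples, in which fewer cells of a type and less RNA per cell cannot be told apart. Results for the family and for the lists around it are therefore also given without both of these arrays, where Merit40-/- replicate 2 alone stands against 3 WT arrays and is assumed to vary like them.

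None of the 7 CDK inhibitor genes passed the threshold over all genes (limma, smallest adjusted p = 0.999), and 1 of them, Cdkn1a, had an unadjusted p under 0.05. Cdkn1a stood higher in all 3 Merit40-/- arrays, while the arrays of the genotypes overlapped for the other 6. By direction alone, 6 genes were higher and 1, Cdkn1c, was lower, with a median difference of 0.12 beside 0.0052 over all genes, of which 51.5% were higher. Over all genes 2.26% were higher at an unadjusted p under 0.05 in limma, and 4.84% had every Merit40-/- array above every WT array, which is the background for the single gene counted here. All 7 genes lay at or above the median level of all genes, which does not by itself show that they were detected. Cdkn1a, Cdkn2a and Cdkn2b lay close to it, at percentiles 55.8, 52.3 and 52.9, where log2 differences are compressed. On the WT arrays they read 4.92 to 5.33, 4.89 to 5.17 and 4.98 to 5.20. The skeletal muscle markers averaged 4.89 to 5.06 on the same arrays, so signal of these 3 genes cannot be told from background there.

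**Figure D1:**
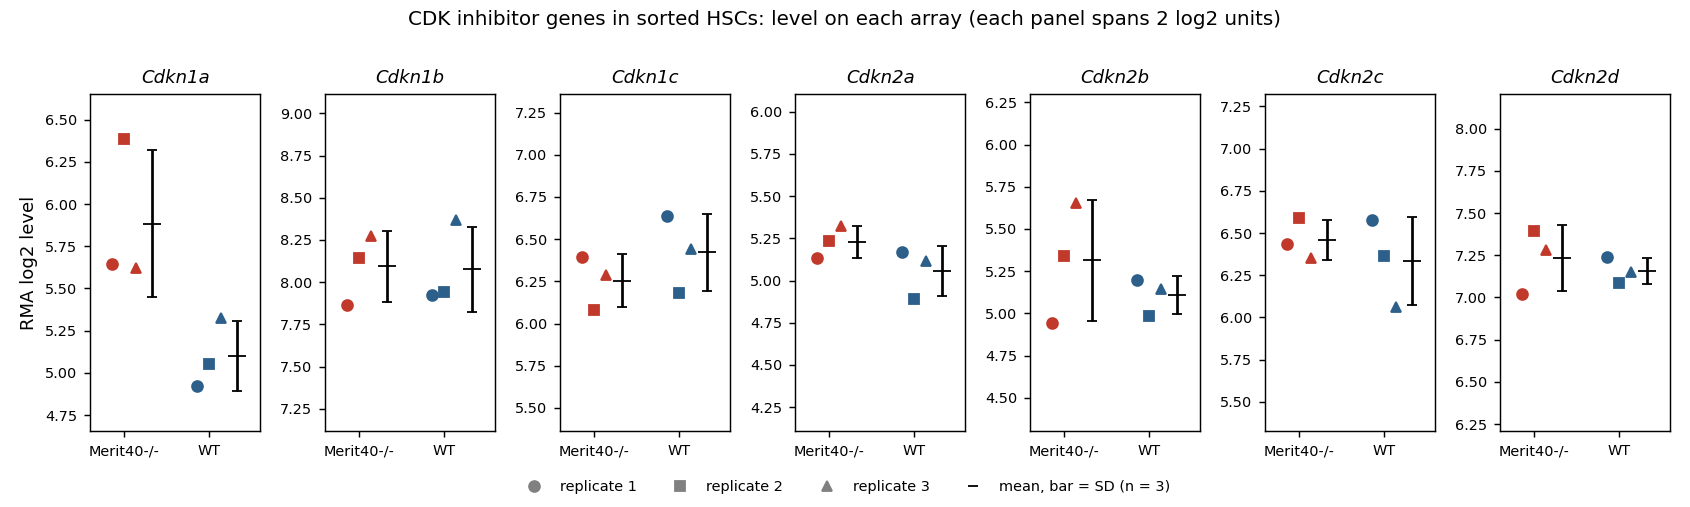
Level of each CDK inhibitor gene on each array in RMA log2 units, with Merit40-/- arrays in red and WT arrays in blue, symbols for the replicate number, and the mean with SD beside the points (n = 3). The Merit40-/- points lie above all WT points for Cdkn1a (5.62 to 6.38 against 4.92 to 5.33), and the genotypes overlap in the other 6 panels.

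Cdkn1a encodes p21, the inhibitor that p53 switches on after DNA damage and that also restrains CDK2 in undamaged cells. It has 2 annotated start sites in RefSeq (GRCm38.p6), 2790 bases apart on the plus strand of chromosome 17, and the array has 1 probe set for the gene, so transcripts from both are read as 1 value. The 250 bases before each start site are shown because Cdkn1a had the largest difference of the family and because the upstream window holds the pair of p53 half-site cores known from the p21 gene. Capitals mark, on either strand, the paired cores CATGNNNNNNCATG, the GC box GGGCGG bound by Sp1 family factors, and the TATA box letters TATAA. No matches overlap.
Cdkn1a upstream start, chr17:29090729-29090978, plus strand: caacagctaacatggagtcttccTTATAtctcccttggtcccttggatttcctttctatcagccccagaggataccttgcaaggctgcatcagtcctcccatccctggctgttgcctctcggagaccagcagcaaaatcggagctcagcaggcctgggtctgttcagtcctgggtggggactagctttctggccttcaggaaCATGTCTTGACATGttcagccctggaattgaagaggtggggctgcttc
Cdkn1a downstream start, chr17:29093519-29093768, plus strand: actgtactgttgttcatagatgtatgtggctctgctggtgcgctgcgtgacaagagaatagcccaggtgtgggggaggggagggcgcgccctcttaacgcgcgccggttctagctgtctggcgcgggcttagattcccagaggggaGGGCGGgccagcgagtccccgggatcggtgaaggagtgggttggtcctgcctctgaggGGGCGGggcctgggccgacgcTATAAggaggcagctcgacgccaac
The paired p53 cores were found once, beginning 48 bases before the upstream start site, and are present in 0.49% of 32851 RefSeq windows of this length. The downstream window holds 2 GC boxes and a TATA box 25 bases before its start site. GC boxes occur in 32.7% and TATAA in 22.8% of all windows, and among 9 windows of 6 family members in 5 and 2. A match describes the letters of the window and was not tested as a binding site.

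Cdkn1a read 5.65, 6.38 and 5.62 in Merit40-/- HSCs, against 4.92, 5.05 and 5.33 in WT HSCs. All 3 Merit40-/- arrays lay above the highest WT array, and Merit40-/- replicate 2, the array without the muscle or osteoclast signal, was the highest of the 6. The means were 5.88 ± 0.43 in Merit40-/- HSCs and 5.10 ± 0.21 in WT HSCs (SD, n = 3 each). The difference of 0.78 (SE 0.22, 95% interval 0.27 to 1.29) corresponds to 1.72-fold as read on the array. Its unadjusted p of 0.00747 ranked 113th among 23185 genes, and the adjusted p was 0.999 in limma. An exact 2-sided permutation test over the arrays gave p = 0.1, the smallest that 3 arrays against 3 allow. Differences as high as that of Cdkn1a, in the upward direction, were found for 0.319% of all genes.

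The size of the Cdkn1a difference depended on Merit40-/- replicate 2. Without that array it was 0.53, and without any other single array it lay between 0.69 and 0.92. It was 0.90 without the array with muscle markers and 0.92 without the array with osteoclast markers. With both of these left out, Merit40-/- replicate 2 alone against 3 WT arrays gave 1.29 (adjusted p = 0.396 in limma). The gene stayed higher in Merit40-/- HSCs in each of these fits and reached an adjusted p under 0.05 in none.

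Cdkn1c encodes p57, an imprinted gene expressed from the maternal copy and known in mice as the Cip/Kip member most tied to the resting state of HSCs. It read 6.39, 6.08 and 6.29 in Merit40-/- HSCs, against 6.64, 6.18 and 6.44 in WT HSCs. The groups overlapped, and the array highest in Cdkn1a, Merit40-/- replicate 2, was the lowest in Cdkn1c. The means were 6.25 ± 0.16 in Merit40-/- HSCs and 6.42 ± 0.23 in WT HSCs (SD, n = 3 each), a difference of -0.17 (SE 0.15, 95% interval -0.52 to 0.19, adjusted p = 0.999 in limma). Cdkn1c was the family's only member with a negative difference, and the sign held without each array in turn, from -0.29 without WT replicate 2 to -0.06 without WT replicate 1. The difference was -0.34 without Merit40-/- replicates 1 and 3 together. On the fold scale the interval runs from 0.696 to 1.14 times the WT level.

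Cdkn1b encodes p27, which links mitogen withdrawal to CDK2 inhibition and is controlled largely through degradation of the protein. Its values were 7.86, 8.14 and 8.28 in Merit40-/- HSCs, against 7.92, 7.94 and 8.37 in WT HSCs. Each genotype spread over about the same range, with both extremes of the 6 arrays in different genotypes. The difference was 0.02 (SE 0.17, 95% interval -0.37 to 0.41), and it took the other sign when Merit40-/- replicate 2, Merit40-/- replicate 3, WT replicate 1 or WT replicate 2 was left out (-0.08 to -0.01). It was 0.06 without Merit40-/- replicates 1 and 3 together. The interval leaves room for 0.771 to 1.32 times the WT level, so a change of p27 transcript beyond that size was not found, while a smaller one was not detectable with these arrays.

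**Figure D2:**
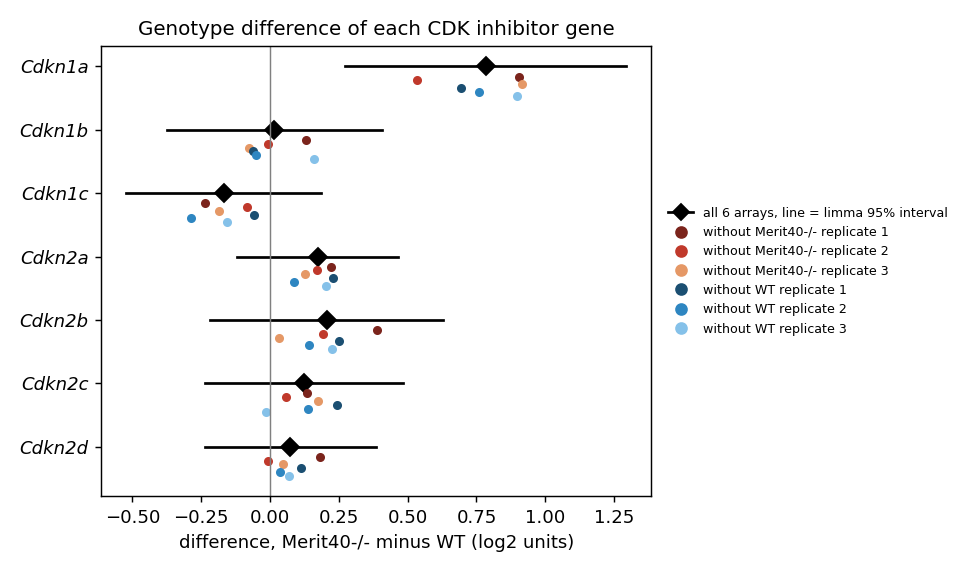
Difference between genotypes for each CDK inhibitor gene, Merit40-/- minus WT in log2 units: black diamonds with lines give all 6 arrays and limma's 95% interval, and coloured points give the difference with 1 array left out. The interval of Cdkn1a (0.27 to 1.29) lies above 0 and those of the other 6 genes span 0.

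Among the INK4 genes, Cdkn2a and Cdkn2b are neighbours on chromosome 4 and are kept silent in HSCs by Polycomb proteins such as Bmi1. Cdkn2a has 2 start sites, 12427 bases apart, whose transcripts share later exons but are read in different frames. One makes p16, an inhibitor of CDK4 and CDK6, and the other makes p19Arf, which stabilises p53. The single probe set of the array cannot separate them. The 250 bases before each start are shown for this reason, with GC boxes in capitals and no p53 core pair or TATAA in either.
Cdkn2a upstream start (p19Arf), chr4:89294620-89294869, minus strand: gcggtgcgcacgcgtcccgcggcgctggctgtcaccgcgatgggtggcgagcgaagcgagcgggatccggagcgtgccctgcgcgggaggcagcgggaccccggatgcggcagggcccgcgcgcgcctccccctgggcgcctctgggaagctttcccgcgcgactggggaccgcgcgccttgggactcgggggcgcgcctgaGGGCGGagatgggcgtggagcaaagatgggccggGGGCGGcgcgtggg
Cdkn2a downstream start (p16), chr4:89282193-89282442, minus strand: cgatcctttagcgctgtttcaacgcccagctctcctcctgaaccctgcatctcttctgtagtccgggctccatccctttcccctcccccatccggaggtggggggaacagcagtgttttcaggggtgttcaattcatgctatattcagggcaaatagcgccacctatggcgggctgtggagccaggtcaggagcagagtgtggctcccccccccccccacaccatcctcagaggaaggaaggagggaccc
The upstream window holds 2 GC boxes and the downstream window holds 0, so the windows differ in the letters searched although their transcripts are measured as 1.

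Cdkn2a read 5.13, 5.23 and 5.32 in Merit40-/- HSCs, against 5.17, 4.89 and 5.12 in WT HSCs. Only WT replicate 1 reached into the Merit40-/- range. The means were 5.23 ± 0.09 in Merit40-/- HSCs and 5.06 ± 0.15 in WT HSCs (SD, n = 3 each), and the difference of 0.17 (SE 0.13, 95% interval -0.12 to 0.47) had an adjusted p of 0.999 in limma. The difference was 0.09 without WT replicate 2, the lowest array, and was 0.17 without Merit40-/- replicates 1 and 3 together.

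Cdkn2b encodes p15, an INK4 protein induced by TGF-beta in many cell types. It read 4.94, 5.34 and 5.66 in Merit40-/- HSCs, against 5.20, 4.98 and 5.15 in WT HSCs. The Merit40-/- arrays were spread more widely (SD 0.36) than the WT arrays (SD 0.11) and included both the lowest and the highest value. Its difference was 0.21 (SE 0.18, 95% interval -0.22 to 0.63). That value rested on single arrays: it was 0.39 (unadjusted p = 0.0397, adjusted p = 0.965 in limma) without Merit40-/- replicate 1 and 0.03 without Merit40-/- replicate 3, the array with osteoclast markers. With both of these arrays left out it was 0.23. The part of the osteoclast signal in the Cdkn2b value of that array was not tested. Across the 6 arrays Cdkn2a and Cdkn2b had r = 0.802, a description over arrays that include both genotypes. It was not particular to these neighbours, as Cdkn2b had r = 0.774 with Cdkn2d on chromosome 9.

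Cdkn2c encodes p18, whose deletion in mice increases HSC self-renewal. It read 6.43, 6.59 and 6.35 in Merit40-/- HSCs, against 6.58, 6.37 and 6.06 in WT HSCs, with 5 of the 6 values interleaved and WT replicate 3 below the rest. The difference was 0.12 (SE 0.16, 95% interval -0.24 to 0.48), and it was -0.01 without WT replicate 3 and 0.25 without Merit40-/- replicates 1 and 3 together. Cdkn2d encodes p19Ink4d, a protein distinct from p19Arf. It read 7.02, 7.40 and 7.28 in Merit40-/- HSCs, against 7.24, 7.09 and 7.15 in WT HSCs, so that the WT values fell inside the Merit40-/- range. Its difference was 0.07 (SE 0.13, 95% interval -0.24 to 0.38), and it was -0.01 without Merit40-/- replicate 2 and 0.24 without Merit40-/- replicates 1 and 3 together. Of the 7 family genes, 6 were higher in that setting and 1 was lower, with a median of 0.23. With all 6 arrays, over the 4 INK4 genes the lowest end of an interval was 0.848 times the WT level (Cdkn2c) and the highest 1.55 times it (Cdkn2b).

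None of the 12 measured cyclins and CDKs, the targets of the inhibitors, passed the threshold. By direction, 10 were lower and 2 higher, with a median of -0.12. Without Merit40-/- replicate 1 there were 7 lower and 5 higher (median -0.03), and with Merit40-/- replicates 1 and 3 both left out there were 4 lower and 8 higher (median 0.02). Cdk6, the partner of D cyclins that INK4 proteins bind, read 10.10, 9.997 and 9.87 in Merit40-/- HSCs, against 10.33, 10.13 and 10.54 in WT HSCs. All its Merit40-/- values were below the WT values (difference -0.34, SE 0.14, unadjusted p = 0.0424, adjusted p = 0.999 in limma). Over all genes 1.96% were lower at an unadjusted p under 0.05 in limma, and 4.22% had every Merit40-/- array below every WT array. The other INK4 target, Cdk4, differed by -0.05 (SE 0.13), and Cdk2, the main kinase held by Cip/Kip proteins, by -0.11 (SE 0.13). The D cyclins went in different directions, with Ccnd2 at 0.21 (SE 0.12) and Ccnd3 at -0.21 (SE 0.12). Ccnd3, like Cdk6, had every Merit40-/- array below every WT array. Ccnd2 alone had every one above, as did 4.84% of all genes. The lowest member was the mitotic cyclin Ccnb2 at -0.36 (SE 0.18).

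Downstream of the kinases, 9 of 11 pocket protein and E2F genes were lower and 2 higher, with a median of -0.18 and 0 past the threshold. The retinoblastoma gene Rb1 differed by -0.03 (SE 0.12). Rbl2, which encodes the pocket protein p130 of resting cells, read 8.44, 8.43 and 8.32 in Merit40-/- HSCs, against 7.99, 8.11 and 8.25 in WT HSCs (difference 0.28, SE 0.12, unadjusted p = 0.0493, adjusted p = 0.999 in limma). E2f4, the E2F factor that works mainly with p130 and p107 as a repressor, read 9.05, 8.44 and 8.70 in Merit40-/- HSCs, against 9.24, 9.39 and 9.05 in WT HSCs (difference -0.50, SE 0.18, unadjusted p = 0.0224, adjusted p = 0.999 in limma). Its highest Merit40-/- value almost met the lowest WT value. The activator E2f3 differed by -0.31 (SE 0.12, unadjusted p = 0.0314, adjusted p = 0.999 in limma), with every Merit40-/- array below every WT array. The highest member, E2f2, differed by 0.43 (SE 0.24). Of the 11 genes, 1 was higher and 2 were lower at an unadjusted p under 0.05 in limma. Over all genes these shares were 2.26% and 1.96%, and 4.22% had every Merit40-/- array below every WT array. With Merit40-/- replicates 1 and 3 both left out, 7 were lower and 4 higher (median -0.02). The median was -0.31 without Merit40-/- replicate 2 and -0.28 without WT replicate 3.

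Genes expressed in dividing cells were mostly lower in Merit40-/- HSCs by direction, with 0 past the threshold. Of 22 G2/M genes, 21 were lower and 1 higher, with a median of -0.21, and of 21 G1/S genes 16 were lower and 5 higher, with a median of -0.16. The ubiquitin-conjugating enzyme Ube2c, of mitotic exit, differed by -0.34 (SE 0.12), the chromosomal passenger Cdca8 by -0.36 (SE 0.15) and the kinetochore motor Cenpe, the lowest, by -0.42 (SE 0.17), each at an unadjusted p under 0.05 in limma. The centromeric histone Cenpa was the highest at 0.05 (SE 0.11). Over all genes 1.96% were lower at an unadjusted p under 0.05 in limma. Of the 22 G2/M genes, 6 had every Merit40-/- array below every WT array and 0 had every one above. Over all genes 4.22% had every Merit40-/- array below and 4.84% every one above. In the G1/S list the histone mRNA binding protein Slbp differed by -0.27 (SE 0.11, unadjusted p = 0.0441 in limma), the replication factor Cdc45 by -0.46 (SE 0.24) and the licensing factor Cdt1 by 0.20 (SE 0.16).

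Array by array, the highest Cdkn1a level and the lowest means of these lists fell on different arrays. Relative to the WT mean, the G2/M list averaged -0.36, 0.01 and -0.31 on the arrays of Merit40-/- replicates 1, 2 and 3, against 0.04, 0.05 and -0.09 on the WT arrays. Cdkn1a was 0.55, 1.29 and 0.52 above the WT mean on the same 3 Merit40-/- arrays. The array with the highest Cdkn1a had a G2/M mean inside the WT range. The 2 arrays with lower G2/M means had both a raised Cdkn1a and the muscle or osteoclast markers, which cannot be told apart here. The G1/S list averaged -0.29, -0.12 and 0.03 on the Merit40-/- arrays, against 0.06, 0.04 and -0.10 on the WT arrays. With Merit40-/- replicates 1 and 3 both left out, 10 of 22 G2/M genes were lower and 12 higher (median 0.03), and 15 of 21 G1/S genes were lower (median -0.11). Without Merit40-/- replicate 1 alone the G1/S median was -0.04, with 13 of 21 lower, and without Merit40-/- replicate 3 alone it was -0.27, with 18 of 21 lower. Without Merit40-/- replicate 2 alone the medians were -0.36 for the G2/M list and -0.10 for the G1/S list. The number of G2/M genes lower at an unadjusted p under 0.05 in limma was then 9 in place of 3. That number was 0 without Merit40-/- replicate 1, Merit40-/- replicate 3 or WT replicate 2. It was 1 without WT replicate 1 and 3 without WT replicate 3. The G2/M median was -0.16 without Merit40-/- replicate 1 alone and -0.20 without Merit40-/- replicate 3 alone. In each of these fits 20 of 22 G2/M genes were lower. The part of Cdkn1a and that of the muscle and osteoclast signal in these lists were not tested.

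**Figure D3:**
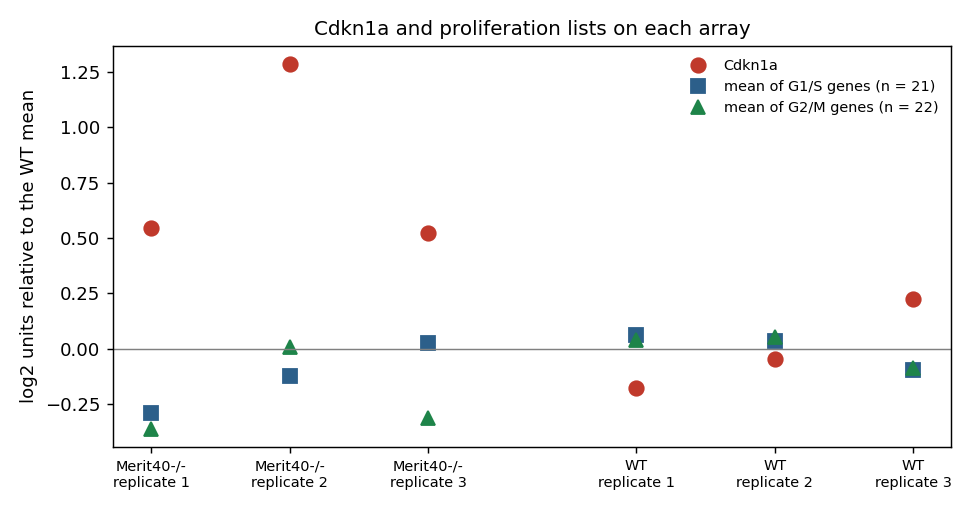
Cdkn1a level and the mean level of the G1/S and G2/M lists on each array, in log2 units relative to the WT mean, with the Merit40-/- arrays on the left. On the array of Merit40-/- replicate 2 Cdkn1a is 1.29 above the WT mean and the G2/M mean is at 0.01. On those of Merit40-/- replicates 1 and 3 Cdkn1a is 0.55 and 0.52 above it, with G2/M means at -0.36 and -0.31.

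Other genes of the p53 axis were split in direction. Of 20 measured genes in the list of p53 inhibitors and targets, 10 were higher and 10 lower, with a median of -0.0079 and 0 past the threshold. The polo-like kinase gene Plk2 read 6.39, 6.45 and 6.30 in Merit40-/- HSCs, against 5.66, 5.91 and 6.29 in WT HSCs, with no overlap by a narrow margin (difference 0.43, SE 0.17, unadjusted p = 0.035 in limma). The antiproliferative gene Btg2 read 6.48, 6.27 and 5.63 in Merit40-/- HSCs, against 6.55, 6.97 and 6.61 in WT HSCs (difference -0.58, SE 0.23, unadjusted p = 0.0328 in limma). Both are p53 targets, and they lay at opposite ends of the list. Cyclin G1 (Ccng1), a direct p53 target, differed by 0.31 (SE 0.14), also with no overlap by a narrow margin. In this list 2 genes had every Merit40-/- array above every WT array and 1, Btg2, had every one below. Over all genes these shares were 4.84% and 4.22%, and 2.26% were higher and 1.96% lower at an unadjusted p under 0.05 in limma. Mdm2, the ubiquitin ligase that p53 induces against itself, differed by -0.20 (SE 0.13), Gadd45a by -0.11 (SE 0.11) and Sesn1 by 0.03 (SE 0.11). Without Merit40-/- replicates 1 and 3 together 8 were higher and 12 lower (median -0.02). Trp53 and Bax were not analysed here.

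Of 20 other transcriptional regulators of Cip/Kip genes, 10 were higher and 10 lower (median 0.0032), with none at an unadjusted p under 0.05 in limma. Foxo3, which activates Cdkn1b and Cdkn1a in resting cells, differed by -0.01 (SE 0.14), the TGF-beta mediator Smad3 by 0.15 (SE 0.13) and Myc, which represses Cdkn1a together with Zbtb17, by -0.09 (SE 0.14). The highest member was the immediate early factor Egr1 at 0.41 (SE 0.21) and the lowest the Notch target Hes1 at -0.32 (SE 0.16). The JAK2 effectors Stat5a and Stat5b differed by -0.01 (SE 0.12) and -0.21 (SE 0.18). Without Merit40-/- replicates 1 and 3 together 7 were higher and 13 lower (median -0.05).

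Among 12 genes for the ubiquitin ligases that destroy Cip/Kip proteins, 6 were higher and 6 lower (median -0.00059). Skp2, the receptor that brings p27 and p21 to the SCF ligase, read 6.68, 6.86 and 7.05 in Merit40-/- HSCs, against 7.29, 7.13 and 7.29 in WT HSCs. All 3 Merit40-/- values were below the lowest WT value (difference -0.38, SE 0.13, unadjusted p = 0.0236, adjusted p = 0.999 in limma). Over all genes 4.22% had every Merit40-/- array below every WT array, and 1.96% were lower at an unadjusted p under 0.05 in limma. Skp2 was the 1 gene of this list lower at that p. The count was 0 without Merit40-/- replicate 1, Merit40-/- replicate 2, WT replicate 1 or WT replicate 3. It was 2 without Merit40-/- replicate 3 and 1 without WT replicate 2. The Skp2 cofactor Cks1b differed by -0.03 (SE 0.34) and the scaffold Cul1, the highest of the list, by 0.26 (SE 0.13). Without Merit40-/- replicates 1 and 3 together 5 were higher and 7 lower (median -0.11), and without Merit40-/- replicate 2 it was 7 and 5 (median 0.11). Arrays measure transcripts, so the protein levels of p21 and p27 were not measured here.

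Regulators of the INK4 locus were lower in 13 of 18 cases (median -0.10), with 0 at an unadjusted p under 0.05 in limma. Bmi1, the Polycomb repressor of Cdkn2a in HSCs, differed by 0.02 (SE 0.32), Cbx7 by -0.10 (SE 0.24) and the methyltransferase gene Ezh2 by -0.17 (SE 0.15). The activator of p16 transcription Ets1 was the highest at 0.36 (SE 0.18) and its antagonist Id1 the lowest at -0.35 (SE 0.18). Without Merit40-/- replicates 1 and 3 together 10 of 18 were lower (median -0.04). Around Cdkn1c, 13 of 15 genes of the imprinted domain and its flanks were higher and 2 lower (median 0.08), against the negative difference of Cdkn1c itself. Only 7 of these 15 lay at or above the median level of all genes. Osbpl5 differed by 0.45 (SE 0.19) and the imprinted noncoding gene H19 by 0.43 (SE 0.16), both at an unadjusted p under 0.05 in limma and both with a WT mean below that median. Over all genes 2.26% were higher at that p. The count of 2 in this list was 0 without Merit40-/- replicate 3 or WT replicate 1, and 1 without any other single array. Kcnq1ot1, the noncoding RNA that silences the paternal copy of Cdkn1c, differed by -0.01 (SE 0.25), and the lowest member was Ins2 at -0.25 (SE 0.14). The domain had 10 higher and 5 lower without Merit40-/- replicates 1 and 3 together (median 0.09).

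**Figure D4:**
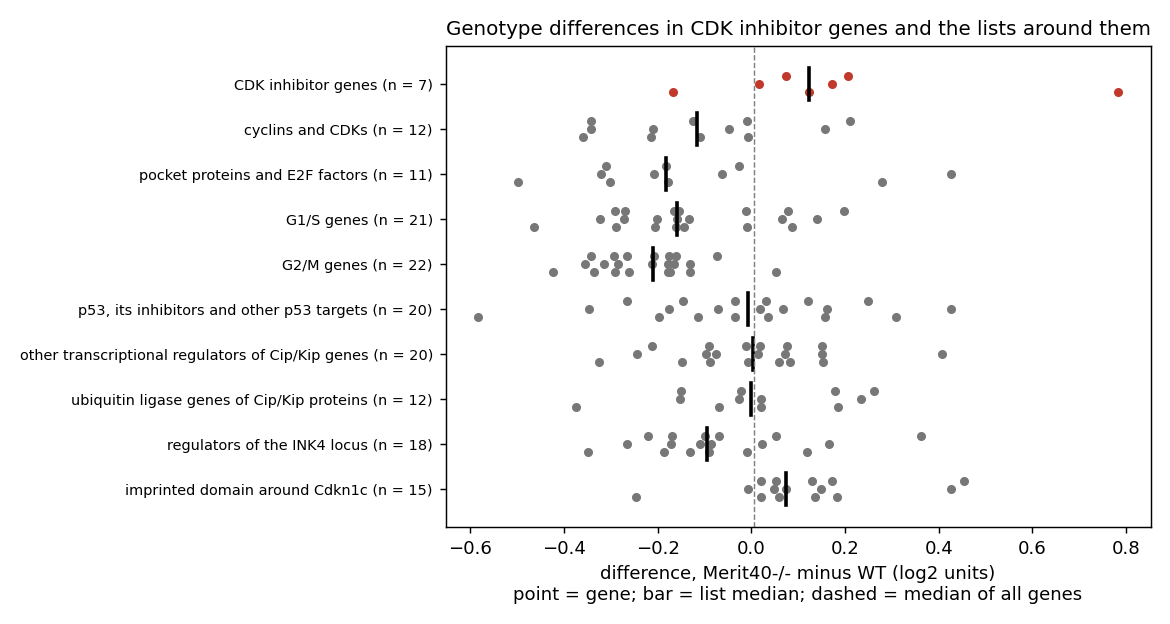
Differences of the 7 CDK inhibitor genes (red) and of the members of 9 lists around them (grey), Merit40-/- minus WT in log2 units, with black bars at the list medians and a dashed line at the median of all named genes (0.0052). Cdkn1a at 0.78 is the highest point drawn, and the G2/M genes have the lowest median at -0.21.

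The genes whose profile over the 6 arrays was most like that of Cdkn1a were Surf1, a mitochondrial assembly factor, with r = 0.984, the thiopurine methyltransferase gene Tpmt with r = 0.984 and the lymphocyte GTPase gene Gimap4 with r = 0.982. They were the top 3 of 2564 candidates, which varied over the arrays by at least 0.5 times the range of Cdkn1a. With only 6 arrays, correlations of this size describe these arrays alone. Gimap4 read 6.31, 7.27 and 6.35 in Merit40-/- HSCs, against 5.82, 5.95 and 6.13 in WT HSCs, and like Cdkn1a was highest on the array of Merit40-/- replicate 2. For Cdkn1c the 3 genes were Prf1 (r = 0.988), Pgrmc2 (r = 0.975) and Itgb1bp2 (r = 0.974), and for Cdkn1b they were Smim7 (r = 0.983), Map4k1 (r = 0.982) and Fis1 (r = 0.980). The INK4 genes had Tbc1d16, Parg and Ptges next to Cdkn2a, Cryaa, Elovl6 and Fbxl19 next to Cdkn2b, Tgm1, Lgals3 and Cpne1 next to Cdkn2c, and Rbakdn, Cnn3 and Cog8 next to Cdkn2d, with r between 0.968 and 0.992. None of the 21 places was taken by another CDK inhibitor gene, but this carries no weight. The rule on range left no other family gene as a candidate for Cdkn1a. For the other members the few family genes stood among 8143 to 10148 candidates. Between Cdkn1a and Cdkn1c the correlation over the 6 arrays was -0.665, again as a description.

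Among the marker lists without a single outlying array, the array means of the genotypes did not overlap for megakaryocyte markers. The mean of 11 megakaryocyte markers was 6.45 to 6.61 on Merit40-/- arrays, against 6.75 to 6.90 on WT arrays, with 9 lower and 2 higher. The means overlapped for 11 erythroid markers (6.76 to 7.11 in Merit40-/-, 6.94 to 7.54 in WT), although 9 of them were lower and 2 higher. They also overlapped for 12 granulocyte and monocyte markers (8.50 to 8.91 in Merit40-/-, 8.48 to 8.82 in WT), 11 lymphoid markers (4.84 to 5.07 and 4.76 to 5.03), 12 macrophage and dendritic cell markers (5.62 to 5.89 and 5.62 to 6.05), 12 stromal and endothelial markers (5.03 to 5.11 and 4.97 to 5.08) and 17 long-term HSC markers (8.15 to 8.41 and 8.09 to 8.34). No marker passed the threshold. Their part in the Cdkn1a difference was not tested.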

How the data were processed

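The deposited values are log2 expression levels for which the submitters' processing notes name RMA and affy. No version, chip definition or build was found in the labels. RMA equalises the arrays, so an overall change in RNA content is not seen, and levels of different probe sets are not read as amounts of transcript: the median of all genes serves as a mark of low signal. The table held 25206 probe sets on 6 arrays. A single symbol was available for 23185 of them, and 2021 had none here. All 23185 matched the reference gene table by Entrez number.

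The 2 genotypes were set against each other in R 4.3.3 by limma 3.58.1 (2-sided moderated test from lmFit and eBayes, no further term, no filter on level), with Benjamini-Hochberg adjustment over 23185 genes at 0.05. The median 95% interval was ±0.342. Single values were also compared with an exact permutation test. The procedure was tested on simulated data. There it called 13.4% of genes changed by 0.58 log2 units, 86.4% of those changed by 1 and 98.5% of those changed by 2. It also called 9 unchanged genes. These shares belong to the simulated data and were not measured on these arrays. Members, gene lists and alternatives were chosen with earlier results of these data known. Of 279 listed genes 267 were measured. In the lists, the text names the highest and lowest member and those at an unadjusted p under 0.05. Other genes, such as Rb1, Cdk4, Cdk2, Mdm2, Foxo3, Bmi1 and Kcnq1ot1, were chosen for their roles after values were seen. For the 3 most similar genes per member, candidates lay at or above the median level and varied over the arrays by at least 0.5 times the member's range, without predicted loci, small RNAs, receptor segments and sex-linked genes.

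Arrays with the same replicate number did not deviate together (r = -0.05 to 0.04), so the numbers were not taken as pairs. The alternatives were a replicate block, 2 other variance models, array weights, 3 scalings, 2 filters on dim genes (30% and 50%), an unmoderated test and each array left out. Leaving out 2 arrays together was chosen after seeing the data. Promoter windows come from RefSeq (GRCm38.p6), which held a window for 6 of the 7 genes.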

Additional observations from a re-analysis of the deposited data

How the results depend on the processing

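No CDK inhibitor gene passed an adjusted p of 0.05 under any alternative. Cdkn1a kept its direction throughout, at 0.78 to 0.82 under the replicate block, the variance models, the weights, the scalings, the filters and the unmoderated test, and at 0.53 to 0.92 with 1 array left out, with unadjusted p values of 0.00541 to 0.0477. Under the replicate block its difference was 0.78 (adjusted p = 0.9997 in limma), Babam1 stayed at -3.94 (adjusted p = 0.00374 in limma), and no other call changed. Signs turned only with 1 array left out: Cdkn1b reached -0.075 (highest 0.16), Cdkn2c -0.015 (highest 0.24) and Cdkn2d -0.0077 (highest 0.18). The unmoderated test called 0 genes, with 990 at an unadjusted p under 0.05, and gave Babam1 at -3.94 an adjusted p of 0.168. Without Merit40-/- replicates 1 and 3 together, 2 genes passed, and the cause was not tested. The scalings moved the median of all genes by at most 0.01. The number of arrays and, for Cdkn1a, Cdkn2a and Cdkn2b, levels near the median limit the precision.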
